A study of Mus musculus with 6 samples.

Results

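Liver *Mttp* and 9 apolipoprotein genes were followed in mice that had lost *Mttp* in the intestine. The 10 genes, *Mttp*, *Apob*, *Apoa1*, *Apoa2*, *Apoa4*, *Apoa5*, *Apoc1*, *Apoc2*, *Apoc3* and *Apoe*, were chosen by name among the 41388 genes counted by RNA-Seq, and all 10 were among the 17287 genes with enough reads to be tested. All mice were males on a C57BL/6 background and carried Mttp f/f together with Villin Cre ER-T2, a Cre that needs tamoxifen and is expressed from the promoter of Villin, a gene of the intestinal epithelium. The *Mttp-IKO* group received tamoxifen for 5 days, whereas the control group, which the labels call wild type, was littermates injected with vehicle. Tamoxifen itself was thus given to one group only, and its effect cannot be told apart from that of the deletion. The mice were 12 to 16 weeks old, and 3 weeks after the injections both groups were fed a methionine/choline-deficient (MCD) diet for 3 weeks and fasted for 4 h before the liver was taken. There were 3 libraries a group, each made from a pool of liver RNA of 3 to 4 mice by the study's methods (the series' design gives 12 livers without stating whether this is per genotype), so the p-values below measure the spread between pools, which is smaller than that between mice. Because the deletion is confined to the intestine by its promoter, the liver level of *Mttp* cannot check the genotype labels. The comparison addresses whether the genes for lipoprotein assembly in liver change when the intestine can no longer assemble chylomicrons.

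Microsomal triglyceride transfer protein, the product of *Mttp*, works in the endoplasmic reticulum as a heterodimer with protein disulfide isomerase (*P4hb*) and loads lipid onto apolipoprotein B as it is made. In the intestine this step yields chylomicrons and in hepatocytes it yields very low density lipoprotein (VLDL), and without it apolipoprotein B is degraded inside the cell. The exchangeable apolipoproteins are added to the particles or circulate on HDL, where they activate or inhibit lipases and serve as ligands for receptors.

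The start regions of *Mttp*, *Apob* and *Apoa1* are shown because the assembly step rests on the first and second, and the third had the largest fold change of the 10 genes. They were read from RefSeq on GRCm38.p6, 5′ to 3′ on the strand of the gene, and those of *Apob* and *Apoa1* end at the base before the gene start in the count files, whereas that of *Mttp* ends just before its RefSeq start, upstream of the gene in those files. Capitals mark matches, on either strand, to TATAAA, the TATA box, and to TGTTTNC, a core of sites for FOXA factors of the liver.
Mttp (chr3:138143419-138143668, minus strand): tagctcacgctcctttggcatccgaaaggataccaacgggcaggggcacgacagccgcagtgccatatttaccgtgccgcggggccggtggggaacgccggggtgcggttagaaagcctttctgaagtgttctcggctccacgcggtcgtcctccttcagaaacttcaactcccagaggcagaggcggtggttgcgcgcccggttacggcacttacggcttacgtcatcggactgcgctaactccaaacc
Apob (chr12:7977427-7977647, plus strand): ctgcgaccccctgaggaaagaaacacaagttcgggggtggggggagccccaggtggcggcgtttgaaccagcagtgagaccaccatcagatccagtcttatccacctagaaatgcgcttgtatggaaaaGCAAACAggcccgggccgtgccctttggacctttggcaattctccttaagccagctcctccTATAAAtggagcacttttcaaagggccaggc
Apoa1 (chr9:46228380-46228579, plus strand): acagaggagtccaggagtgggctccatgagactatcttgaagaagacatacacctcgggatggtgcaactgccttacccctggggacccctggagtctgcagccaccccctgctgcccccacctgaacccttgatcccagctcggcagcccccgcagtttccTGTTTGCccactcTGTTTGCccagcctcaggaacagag

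RefSeq start regions were at hand for 8 of the 10 genes, all but *Apoc1* and *Apoc3*, and the search used the 250 bases before the RefSeq start. The *Apoa1* region held the TGTTTNC core at 2 places, 88 and 75 bases before the RefSeq start, which lies downstream of the stretch printed above. *Apob*, *Apoa2* and *Apoa5* held the core at 1 place each. Of all 32851 mouse start regions of this length, 17.8% held this core. TATAAA was found in *Apob*, *Apoa2* and *Apoa5* and in 12.4% of all regions. *Apoc2* held AGGTCA, a half-site of nuclear receptors (14.0% of all regions), and GTTAAT, a half-site of HNF1 (6.43%). The *Apoc2* region searched (chr7:19677942-19678191) lies inside the gene as given in the count files (chr7:19671579-19681423). Those of *Apoa4*, *Apob* and *Apoa1* lie partly inside their genes. CAAAGTCC, a core of HNF4 sites, is in 1.2% of all regions and was in none of the 8, and *Mttp*, *Apoa4* and *Apoe* held none of the 5 motifs searched. None of these motifs contains another, and a match describes the sequence only.

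Pools held 25271585 to 36238734 reads on genes, and TMM factors were 0.898 to 1.11. *Mttp-IKO* pool 3, which had the fewest reads, stood apart by gene length. Medians by length class were taken over the tested protein-coding genes, relative to the control mean on the log2 scale. In *Mttp-IKO* pools 1 and 2 the class medians stayed between −0.15 and 0.04. In pool 3 they ran from −1.57 (150 genes under 600 nt of exon) to 0.28 (1648 genes of 8000 nt and over). Fold changes of the 10 genes are therefore also given without this pool. The libraries were liver by their markers, with a summed level of 10 hepatocyte genes of 69092 to 102550 CPM (read counts scaled to library size by TMM) in control pools and 118492 to 168462 in *Mttp-IKO* pools. None of the 10 passed the test, and most of that sum was albumin (*Alb*, log2 fold change 0.95, adjusted p = 0.157, edgeR). Of these markers 6 had a fold change above 0 and 4 below. Scaling to hepatocyte markers, used below, was by the summed reads of these 10 genes, so it followed mostly *Alb*. Whether it corrects for hepatocyte content was not tested. The intestinal genes *Lct*, *Sis*, *Cdh17* and *Cdx2* stayed under the filter on low counts. The summed level of all 7 small intestine genes was 65.9 to 73.9 CPM in control and 47.4 to 55.9 CPM in *Mttp-IKO* pools. Most of that sum was *Fabp2* (means of 36.1 CPM in control and 20.8 CPM in *Mttp-IKO* pools) and *Lgals4* (30.3 and 28.9 CPM). *Vil1* was at 2.02 and 2.42 CPM, and none of the 3 genes tested passed. The summed level of 11 macrophage genes was 880.4 to 1775 CPM in control and 542 to 909 CPM in *Mttp-IKO* pools (1 rose, *Timd4*, and 2 fell, *Lyz2* and *Trem2*). That of 6 stellate cell genes was 709.8 to 1081 CPM against 432 to 488 CPM (3 fell, *Lrat*, *Col1a1* and *Pdgfrb*), and 5 striated muscle genes summed to 0.875 to 553 CPM in the controls and 0.461 to 1.03 CPM in the *Mttp-IKO* pools. In whole liver, fewer cells of a type and less RNA per cell cannot be told apart. The part of these shifts in the values of the 10 genes was not tested. Over all genes tested, 4.01% passed the test between genotypes.

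None of the 10 genes passed the test between genotypes (0 of 10 at an adjusted p under 0.05, edgeR's quasi-likelihood test), beside 694 of 17287 genes, or 4.01%. One gene, *Apoa1*, had an unadjusted p under 0.05. Fold changes were above 0 for 4 genes and below 0 for 6, and their median on the log2 scale was −0.03, beside 0.01 for all genes tested. Control and *Mttp-IKO* pools did not overlap for 2 of the 10, *Apob* and *Apoc1*, beside 31.0% of all genes tested. Without *Mttp-IKO* pool 3, a choice made after the values were seen, they did not overlap for 3 of the 10, *Apob*, *Apoa1* and *Apoc1*, beside 45.4% of all genes. *Mttp-IKO* pool 3 was the lowest of the 6 pools for 6 genes and the highest for 1, *Apob*. Together the 10 genes took 4.40%, 4.67% and 4.41% of all reads in the control pools and 4.92%, 5.03% and 3.61% in the *Mttp-IKO* pools. Their share was thus highest in 2 of the *Mttp-IKO* pools and lowest in the third, so that the groups overlapped.

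**Figure D1:**
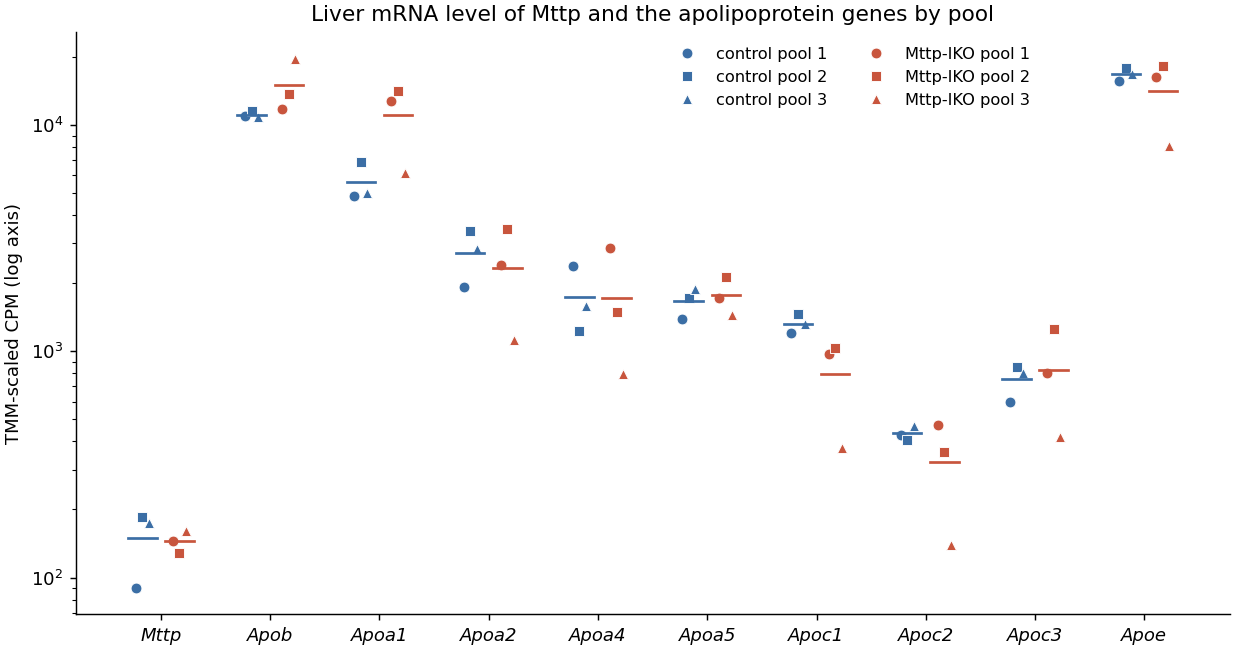
Level of each of the 10 genes in each pool, as TMM-scaled CPM on a log axis, with control pools in blue, *Mttp-IKO* pools in red, one symbol per pool number and a line at each group mean (n = 3 pools). Only *Apob* and *Apoc1* have groups that do not overlap, and *Mttp-IKO* pool 3 (red triangles) is the lowest of all pools for 6 genes.

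*Mttp* (ENSMUSG00000028158, chr3:138089855-138143388, minus strand, 4410 nt of exon), the lipid transfer subunit, was the least abundant of the 10. Its level was 90.4, 186 and 175 CPM in control pools 1 to 3 and 145, 129 and 161 CPM in the *Mttp-IKO* pools. All 3 *Mttp-IKO* values lay inside the range of the control pools, which was set by the low value of control pool 1. The means were 150.4 ± 52.2 and 145 ± 16 CPM (SD, n = 3), and the log2 fold change was −0.06 (SE 0.27, 95% confidence interval −0.68 to 0.57, adjusted p = 0.926, edgeR). The interval covers folds of 0.623 to 1.49, so changes of *Mttp* within these bounds are not excluded. Without *Mttp-IKO* pool 3 the log2 fold change was −0.13 (adjusted p = 0.811), and its sign turned with some of the pools left out. Scaled to total counts it was −0.22 and scaled to hepatocyte markers −0.67 (adjusted p = 0.657 and 0.115, edgeR). *P4hb*, the partner subunit, was at 1496, 1458 and 1481 CPM in the controls and 2008, 1635 and 1254 CPM in the *Mttp-IKO* pools. The partner therefore spanned a wider range in the *Mttp-IKO* pools, on both sides of the control values, and did not pass the test (log2 fold change 0.14, adjusted p = 0.740, edgeR).

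The 5 protein-coding genes whose levels followed *Mttp* most closely over the 6 pools were *Pla2g12a*, *Kdr*, *Ero1lb*, *Akr1c14* and *Acsm1*. Likeness was the root mean square difference of log2 CPM after each gene was centred on its mean, which was 0.152 to 0.158 for these 5 of 6977 candidates. They shared the low level in control pool 1 that marked *Mttp*, for example *Akr1c14* at 61.0, 144 and 96.3 CPM in the controls and 86.6, 80.8 and 97.0 CPM in the *Mttp-IKO* pools. The apolipoprotein gene nearest to *Mttp* was *Apoa5*, with a difference of 0.337 at place 1175. With 6 pools of the same libraries, this order is a description.

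*Apob* (ENSMUSG00000020609, chr12:7977648-8016835, plus strand, 13934 nt of exon) encodes the structural protein of VLDL and chylomicrons, and it is the longest of the 10 genes. Its level was 10955, 11609 and 10842 CPM in the controls and 11781, 13766 and 19674 CPM in the *Mttp-IKO* pools. Every *Mttp-IKO* pool was above every control pool, although pool 1 exceeded the highest control by little and pool 3 was far above the rest. In *Mttp-IKO* pool 3, the pool in which long genes were high, *Apob* was 0.82 above the control mean on the log2 scale. It was 0.54 above the median of protein-coding genes of 8000 nt and over. The log2 fold change was 0.44 (SE 0.27, 95% confidence interval −0.19 to 1.06, adjusted p = 0.373, edgeR), and it was 0.20 (adjusted p = 0.481) without *Mttp-IKO* pool 3. The separation rested on the scaling, since as a share of all reads *Apob* took 1.22%, 1.19% and 1.14% in control pools and 1.15%, 1.24% and 1.86% in *Mttp-IKO* pools, which overlap. With the trend of each library with gene length removed and all pools kept, the log2 fold change was 0.44 (adjusted p = 0.227, edgeR). When the counts were scaled to hepatocyte markers it was −0.23.

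Sortilin (*Sort1*), which binds apolipoprotein B in the secretory pathway, had the largest fold change of 19 genes for assembly and export of VLDL, none of which passed the test. It was at 47.4, 24.1 and 36.4 CPM in the controls and 15.3, 18.6 and 21.7 CPM in the *Mttp-IKO* pools, with a log2 fold change of −0.96 (adjusted p = 0.0804, edgeR). Its groups did not overlap. Of the fits that left out a pool it passed without control pool 2, the lowest control (adjusted p = 0.0280), and not in the others (0.0738 without *Mttp-IKO* pool 3, at most 0.246). *Apobec1*, the deaminase that edits *Apob* mRNA to the short form of the protein, was at 47.8, 24.9 and 40.3 CPM in control and 20.5, 18.3 and 21.3 CPM in *Mttp-IKO* pools. Its log2 fold change was −0.91 (adjusted p = 0.0737, edgeR), and it passed without control pool 2 (0.0178) and in no other fit that left out a pool (0.0867 without *Mttp-IKO* pool 3, at most 0.246). None of the 4 genes of *Apob* mRNA editing passed the test with all pools kept. The part of the macrophage and stellate cell shifts given above in the levels of *Sort1* and *Apobec1* was not tested. The median log2 fold change was 0.14 for the 19 assembly genes and 0.14 for the 4 editing genes.

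*Apoa1* (ENSMUSG00000032083, chr9:46228580-46230466, plus strand, 1236 nt of exon) encodes the main protein of HDL, which liver and intestine both secrete. Its level was 4862, 6897 and 5024 CPM in the controls and 12816, 14215 and 6121.0 CPM in the *Mttp-IKO* pools. *Mttp-IKO* pools 1 and 2 were far above all controls, whereas pool 3 lay between the control values. The means were 5595 ± 1131 and 11051 ± 4326 CPM (SD, n = 3), and the log2 fold change was 0.98 (SE 0.35, 95% confidence interval 0.17 to 1.80, unadjusted p = 0.0237, adjusted p = 0.153, edgeR). It thus missed the threshold after adjustment. *Apoa1* passed in 2 of 17 alternatives. Leaving out any pool but *Mttp-IKO* pool 3, its adjusted p was 0.196 to 0.436 (edgeR). Without *Mttp-IKO* pool 3 the log2 fold change was 1.27 (95% confidence interval 0.79 to 1.76, adjusted p = 0.0268, edgeR), and *Apoa1* was then the single one of the 10 genes among the 4.84% of genes that passed. In that pool *Apoa1* was 0.15 above the control mean on the log2 scale. It was 0.59 above the median of protein-coding genes of 1000 to 1999 nt. With the trend of each library with gene length removed and all pools kept, the log2 fold change was 1.13 (adjusted p = 0.0646, edgeR). DESeq2's Wald test called *Apoa1* and no other of the 10 (adjusted p = 0.0276) but called 11.5% of all genes. Scaled to hepatocyte markers, the log2 fold change fell to 0.26. Under that scaling, which made 27.0% of all genes pass, 4 of the 10 were lower and passed the test, *Apoa2*, *Apoc1*, *Apoc2* and *Apoe*.

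**Figure D2:**
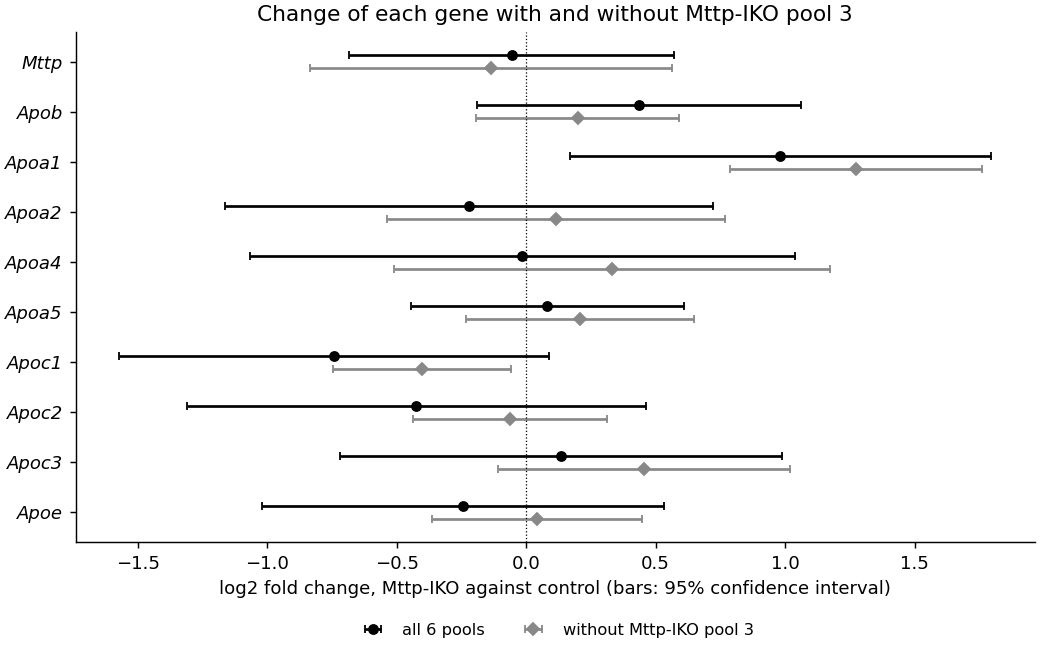
Log2 fold change of each gene in *Mttp-IKO* against control liver with its 95% confidence interval, from all 6 pools (black circles) and without *Mttp-IKO* pool 3 (grey diamonds). The intervals of *Apoa1* lie above 0 in both, and without pool 3 that of *Apoc1* lies below 0 although its adjusted p was 0.142.

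The other genes of the A family showed no separation of the groups. *Apoa2*, the second protein of HDL and with *Apoc1* the shortest gene here (537 nt of exon), was at 1928, 3414 and 2826 CPM in the controls and 2414, 3478 and 1118 CPM in the *Mttp-IKO* pools. *Apoa4*, a protein of chylomicrons and HDL that in mice is also made in liver, was at 2391, 1229 and 1591 CPM in the controls and 2878, 1493 and 791 CPM in the *Mttp-IKO* pools. For *Apoa2* and *Apoa4* alike, *Mttp-IKO* pool 3 was the lowest of all pools, and the log2 fold changes of −0.22 and −0.01 became 0.12 and 0.33 without it (adjusted p = 0.826 and 0.592, edgeR). *Apoa4* (1815 nt of exon) shares 632 nt of exon with the antisense gene *Gm10680* (702 nt), to which 1 to 9 reads were assigned. Whether counting used the strand is not known. If it did not, reads in the shared stretch were ambiguous and are missing from the level of *Apoa4*. *Apoa5*, which promotes lipolysis by lipoprotein lipase, was at 1397, 1727 and 1887 CPM in the controls and 1713, 2141 and 1452 CPM in the *Mttp-IKO* pools. Its log2 fold change of 0.08 (95% confidence interval −0.44 to 0.61, adjusted p = 0.862, edgeR) had the narrowest interval of the 10 genes with all pools kept.

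The C family holds small proteins that regulate lipoprotein lipase and receptor uptake. *Apoc1* (ENSMUSG00000040564, chr7:19689484-19692658, minus strand), which slows the uptake of remnants, was at 1201, 1461.0 and 1319 CPM in the controls and 976, 1030.3 and 375 CPM in the *Mttp-IKO* pools. Every *Mttp-IKO* pool was below every control pool, and the lowest was again pool 3. The log2 fold change was −0.74 (SE 0.36, 95% confidence interval −1.57 to 0.09, adjusted p = 0.265, edgeR), and it was −0.40 (95% confidence interval −0.75 to −0.06, adjusted p = 0.142) without that pool. In *Mttp-IKO* pool 3 *Apoc1* was at −1.82 relative to the control mean on the log2 scale. Relative to the median protein-coding gene under 600 nt it was at −0.25. *Apoc2*, the activator of lipoprotein lipase, was at 425, 408 and 469.9 CPM in the controls and 472, 359 and 140.0 CPM in the *Mttp-IKO* pools. *Apoc3*, its inhibitor, was at 599, 853 and 804 CPM against 803, 1257 and 418 CPM. Neither separated the groups, with log2 fold changes of −0.42 and 0.14 (adjusted p = 0.547 and 0.861, edgeR), which were −0.06 and 0.46 without *Mttp-IKO* pool 3. *Apoc2* shares 112 nt of exon with *Apoc4* on the same strand, and reads there are ambiguous and were not counted.

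*Apoe* (ENSMUSG00000002985, chr7:19696109-19699166, minus strand, 1980 nt of exon), the ligand for receptor uptake of remnants, was the most abundant of the 10 in CPM in control liver. Its level was 15702, 17872 and 16836 CPM in the controls and 16370, 18175 and 8049 CPM in the *Mttp-IKO* pools. The values of *Mttp-IKO* pools 1 and 2 were within or just above the control range, and pool 3 was at less than any other. The log2 fold change was −0.24 (95% confidence interval −1.02 to 0.53, adjusted p = 0.702, edgeR) and 0.04 (95% confidence interval −0.36 to 0.45) without pool 3.

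In *Mttp-IKO* pool 3 the genes under 1000 nt and those of 4000 nt and over stood on the same side of the control mean as their length classes. In that pool the genes stood relative to the control mean at −1.25 (*Apoa2*), −1.82 (*Apoc1*) and −1.63 (*Apoc2*) on the log2 scale for the genes under 1000 nt, and at 0.16 (*Mttp*) and 0.82 (*Apob*) for those of 4000 nt and over. The genes of 1000 to 1999 nt were spread widely, at 0.15 (*Apoa1*), −0.83 (*Apoc3*), −1.06 (*Apoe*) and −1.08 (*Apoa4*), beside a class median of −0.44. *Apoa5*, of 2000 to 3999 nt, was at −0.19 beside a class median of −0.11. Relative to the median of their own length class the 10 genes lay between −0.75 (*Apoc2*) and 0.59 (*Apoa1*), and *Mttp* was at 0.06.

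**Figure D3:**
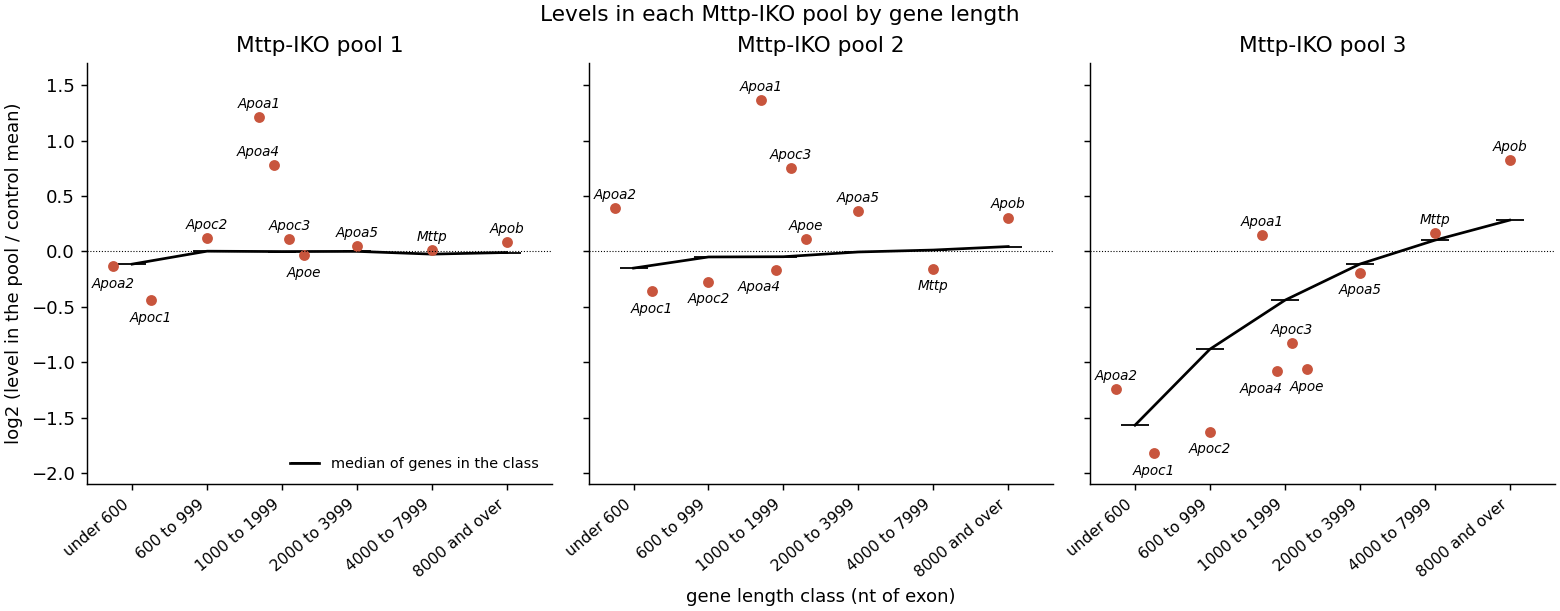
Level of each gene relative to the control mean (log2) in each *Mttp-IKO* pool, by class of exon length in nt. The black line joins the medians of all tested protein-coding genes in each class. The line stays between −0.15 and 0.04 in pools 1 and 2 and rises from −1.57 to 0.28 in pool 3, where the red points of the 10 genes lie within 0.75 of it.

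Levels between genes were compared per kilobase of exon. In control liver the order of the mean TMM-scaled CPM per kilobase was *Apoe* (8487), *Apoa2* (5070), *Apoa1* (4526), *Apoc1* (2471), *Apoa4* (957), *Apob* (799), *Apoc3* (742), *Apoa5* (664), *Apoc2* (466) and *Mttp* (34.1). *Apoa2* and *Apoa1* overlapped over the control pools, as did the neighbours from *Apoa4* to *Apoa5*, and the other neighbours did not. In *Mttp-IKO* liver *Apoa1* came first (8941 ± 3500) and *Apoe* second (7171 ± 2728, SD, n = 3 pools), with overlapping ranges, and *Mttp* stayed last (32.8 ± 3.62). Within a pool the ratio of a pair of genes is free of the scaling. *Apoa1* per kilobase was 0.496, 0.618 and 0.478 times *Apoe* in control pools and 1.25, 1.25 and 1.22 times *Apoe* in *Mttp-IKO* pools. *Apoa1* was therefore below *Apoe* in every control pool and above it in every *Mttp-IKO* pool, pool 3 included. The exact two-sided permutation p of this ratio is 0.1, the smallest that 3 pools against 3 allow, and the pair was chosen after its values were seen. Of the 45 ratios among the 10 genes, 14 did not overlap between genotypes, beside 31.4% of all gene pairs at an average log2 CPM of 4 or more, so that the count itself is at the background. *Apoa1* and *Apoc1* were each in 6 of their 9 ratios that did not overlap, and *Mttp* and *Apoa4* in 0 of 9. The ratio of *Apoa1* to *Apoc1* was 1.76, 2.05 and 1.66 in control pools and 5.70, 5.99 and 7.09 in *Mttp-IKO* pools. Ratios of genes of unlike length are not free of the length trend of *Mttp-IKO* pool 3. Its class medians were −0.44 for genes of 1000 to 1999 nt (*Apoa1*) and −1.57 for those under 600 nt (*Apoc1*). The part of that trend in these ratios was not tested.

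**Figure D4:**
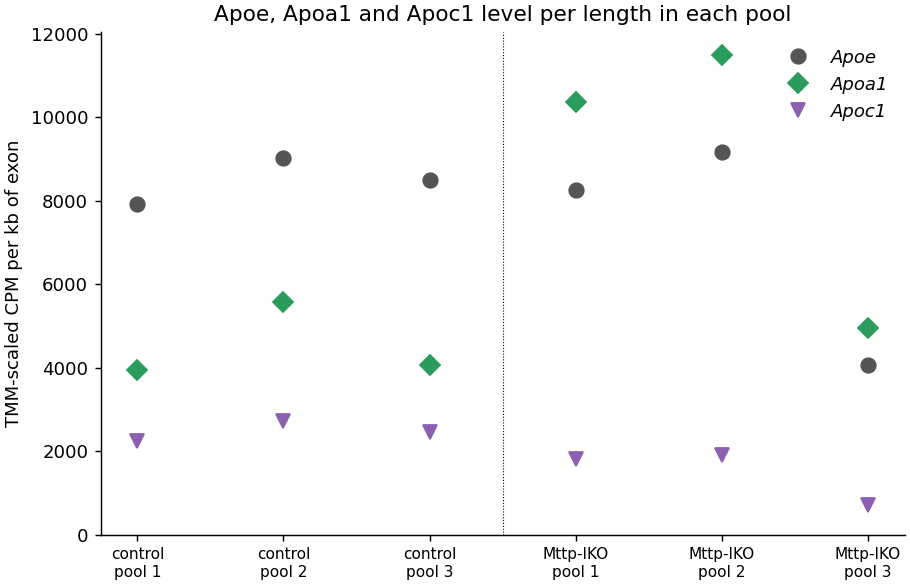
Level of *Apoe*, *Apoa1* and *Apoc1* per kilobase of exon (TMM-scaled CPM per kb) in each pool, control at left and *Mttp-IKO* at right of the dotted line. *Apoa1* lies below *Apoe* in all 3 control pools and above it in all 3 *Mttp-IKO* pools, with ratios of 1.22 to 1.25 there.

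The members on chromosomes 9 (4 genes) and 7 (3 genes) lie in clusters. *Apoa1*, *Apoc3*, *Apoa4* and *Apoa5* lie within 43340 nt (chr9:46228580-46271919), and their log2 fold changes were 0.98, 0.14, −0.01 and 0.08. *Apoc2*, *Apoc4*, *Apoc1* and *Apoe* lie within 27588 nt (chr7:19671579-19699166), and those of *Apoc2*, *Apoc1* and *Apoe* were −0.42, −0.74 and −0.24. No member of either cluster passed the test.

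Among other genes of the pathway, 9 of 10 further apolipoprotein genes were tested and none passed. The largest fold change was that of *Saa2*, an acute phase apolipoprotein of HDL (19.3, 12.6 and 22.6 CPM against 6.51, 14.0 and 3.61 CPM, log2 fold change −1.17, adjusted p = 0.178, edgeR), and the median of the 9 was −0.02. None of 11 genes of particle remodelling passed (median −0.08), among which *Abcg1*, a cholesterol exporter that is abundant in macrophages, had the largest fold change. It was at 64.5, 33.5 and 57.1 CPM in control and 24.8, 28.8 and 24.6 CPM in *Mttp-IKO* pools, without overlap (log2 fold change −0.99, adjusted p = 0.0645, edgeR). It passed without control pool 2 (0.0135) and did not pass without any other pool (0.0920 without *Mttp-IKO* pool 3, at most 0.221). Of the 11 macrophage genes given above 8 had a fold change below 0 and 3 above, and their part in the level of *Abcg1* was not tested.

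Of 25 transcriptional regulators of these genes, 18 had a fold change above 0 and 7 below, with a median log2 fold change of 0.26. Of the 25, 2 passed the test, both higher, beside 4.01% of all genes tested. The pools of 14 of the 25 did not overlap, beside the 31.0% of all genes given above. *Srebf2*, the sterol-regulated activator of cholesterol synthesis, was at 93.7, 143 and 113.5 CPM in the controls and 203, 238 and 222.5 CPM in the *Mttp-IKO* pools, and rose by a log2 fold change of 0.92 (SE 0.20, adjusted p = 0.0446, edgeR). *Nr0b2*, a bile acid-induced repressor, was at 25.1, 21.1 and 17.3 CPM against 54.5, 45.8 and 33.1 CPM and rose by 1.07 (SE 0.22, adjusted p = 0.0435, edgeR). Neither set of pools overlapped, but without control pool 1 the adjusted p was 0.180 for *Srebf2* and 0.119 for *Nr0b2*, without control pool 3 it was 0.199 for both, and without *Mttp-IKO* pool 1 or 2 it was 0.0793 and 0.152 for *Srebf2* and 0.0930 and 0.148 for *Nr0b2*. Without *Mttp-IKO* pool 3 both passed (0.0466 and 0.0208). Without control pool 2 *Srebf2* passed (0.0327) and *Nr0b2* did not (0.0967). Under hepatocyte marker scaling neither passed (0.486 and 0.413). *Nr0b2* also missed the threshold with total counts (adjusted p = 0.0699, edgeR) and with limma-voom (adjusted p = 0.0556). *Srebf2* passed in 12 and *Nr0b2* in 9 of 17 alternatives. *Hnf4a*, the nuclear receptor that activates *Mttp* and many apolipoprotein genes, was at 564, 686 and 600.4 CPM in the controls and 868, 1203 and 1318 CPM in the *Mttp-IKO* pools. All *Mttp-IKO* pools were above all controls, with a log2 fold change of 0.87 (SE 0.22, adjusted p = 0.0664, edgeR). It passed in 3 of 17 alternatives, among them the removal of the length trend (adjusted p = 0.0392), and in none of the 6 that left out a pool (0.0622 without *Mttp-IKO* pool 3, at most 0.260). Under hepatocyte marker scaling its log2 fold change was 0.19 (adjusted p = 0.614).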

How the data were processed

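Total liver RNA of 3 control and 3 *Mttp-IKO* pools was sequenced after depletion of ribosomal RNA. The authors aligned reads to Ensembl release 76 (GRCm38) by STAR 2.5.1a, and Subread featureCounts 1.4.6-p5 assigned to genes those that mapped uniquely and without ambiguity. Whether the strand was used is not given in the sources used here. The authors deposited, for each pool, counts of 41388 genes without normalization, with CPM (relative to the reads counted) and RPKM (per kilobase of gene length) derived from them. Only the deposited counts were analysed, since the deposited CPM and RPKM follow from them. A deposited table of all pools, with 276 repeated lines dropped, gave symbols and biotypes of 40481 genes and the same counts. Exon lengths and coordinates are those of the files.

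The default filter of edgeR (filterByExpr, at least 10 reads and 15 in total) kept 17287 genes. After TMM scaling, genotypes were tested with the quasi-likelihood functions of edgeR 4.0.16 in R 4.3.3 (glmQLFit, glmQLFTest), p-values were adjusted by Benjamini-Hochberg over every gene tested, and 0.05 was the threshold; the study's methods name no test for these counts. A count of 0 would allow up to 3 reads (0.0828 to 0.119 CPM), which covers counting error only, and no member was near it. The test was checked on simulated counts. Alternatives were DESeq2 1.42.0, limma-voom (limma 3.58.1), other scalings and filters, a block for the replicate number, a loess correction (span 0.3) for gene length in each library, and fits that omit 1 pool. Same-numbered pools deviated from their group means with correlations of 0.164, 0.143 and 0.00273, so the numbers were not taken to pair the pools.

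The members and all gene lists were chosen with earlier results of these data known. Text names every member, *P4hb*, *Hnf4a*, the genes of each pathway list described that passed the threshold (at most 5) or otherwise its gene of largest fold change, and the 5 protein-coding genes nearest to *Mttp* among those with an average log2 CPM of at least 4. The list of lipoprotein uptake genes is not reported here. Marker genes outside this rule were named after their values were seen. One hepatocyte marker is listed under its mouse symbol *Trf*. Plots were made in Python 3.11.15 (matplotlib 3.10.9).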

Additional observations from a re-analysis of the deposited data

How the results depend on the processing

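The number of genes called was 694 and kept within 1.5 times of that except for 4671 with hepatocyte marker scaling, 1995 with DESeq2's Wald test, 428 with limma-voom and 0 to 892 on leaving out 1 pool (0 without *Mttp-IKO* pool 2 by edgeR, with 3221 at an unadjusted p under 0.05, and 892 without control pool 2). Total counts gave 112 higher and 907 lower against 159 and 535, with the median of all genes moved by −0.18, and hepatocyte scaling gave 60 and 4611 and moved it by −0.70. Removing the length trend gave 358 and 508 and moved it by 0.11, and the Wald test gave 657 and 1338. Members called were 4 with hepatocyte scaling, 1 (*Apoa1*) with the Wald test, and 0 to 1 on leaving out a pool (*Apoa1* without *Mttp-IKO* pool 3). Small fold changes turned sign. *Mttp* (−0.06) was 0.0049 with voom, 0.0067 with the replicate block, 0.0282 with the length trend removed, 0.0984 with the replicate block and the trend removed, and −0.34 to 0.10 on leaving out a pool, and it kept its sign at −0.22 with total counts and −0.67 with hepatocyte scaling. *Apoa4* was 0.0007 with DESeq2 size factors or its Wald test, 0.1085 with the trend removed and 0.0112 with the block as well, and −0.60 to 0.33 on leaving out a pool. With total counts *Apoa5*, *Apoc3* and *P4hb* were −0.0992, −0.0514 and −0.0347, and with hepatocyte scaling they were −0.6303, −0.6182 and −0.5711, and *Apob* −0.2341. Leaving out a pool gave −0.0779 to 0.21 for *Apoa5*, −0.30 to 0.46 for *Apoc3*, −0.62 to 0.12 for *Apoa2*, −0.46 to 0.0421 for *Apoe* and −0.0332 to 0.30 for *P4hb*. The causes were not tested. *Apoa1* stayed above 0 (0.26 to 1.27) and *Apoc1* below 0 (−1.48 to −0.40) in all 17 alternatives. The replicate block gave 592 genes called and 0 members, and the numbers are a label only. Each left-out fit kept at least 2 pools a group, and no alternative was left out. The members had 3337 reads or more in every pool.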
